A study of Mus musculus with 9 samples.

Results

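The miRNAs described here are miR-3535, miR-7033-5p, miR-3470a, miR-3470b, miR-598-3p and miR-5621-5p, which are 6 of the 358 miRNAs measured in mouse epididymosomes. They were selected by name because their levels in these same libraries were highest in the corpus epididymis. Their corpus levels are therefore given as a description and without a test. Epididymosomes are small membrane vesicles that the epididymal epithelium releases into the lumen. Small RNA was sequenced from vesicles of the caput, corpus and cauda, with 3 libraries per segment and 9 in all. Every library came from untreated male Swiss mice aged 8 weeks, with no transgene or other manipulation, and the groups differed only in the segment.

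Each library held RNA pooled from several animals, so that a replicate was a pool and the spread between single mice was not measured. The authors perfused the vasculature, cut each segment open to release the luminal fluid, cleared the fluid of cells and debris and collected the vesicles from a density gradient. Levels are given in CPM, read counts scaled so that the miRNA reads of every library have the same total. The libraries held between 1548581 and 11306605 such reads, and the caput libraries were the deepest, with at least 8274421 reads each. At 10 CPM a miRNA had 113 reads in the deepest library and 15.5 in the shallowest, which was corpus replicate 3. A value is a share of the miRNA reads of the library, and fewer vesicles of a kind and less miRNA per vesicle cannot be told apart.

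A typical miRNA is cut from a hairpin in a longer transcript, loaded into an Argonaute protein and guided to messenger RNAs by its seed, which is bases 2 to 8. Some entries of the miRNA catalogue overlap other small RNA classes. These classes include the box C/D small nucleolar RNAs (snoRNAs), which guide the methylation of ribosomal RNA, and short introns that are released by splicing instead of by the Drosha enzyme. Vesicle miRNAs are of interest in the epididymis because sperm acquire small RNAs while they pass from the caput through the corpus to the cauda.

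The mature sequences are shown first because they say what was counted under each name. RefSeq (GRCm38.p6) held a mature sequence for 299 of the 358 names and for 4 of the 6 miRNAs. The seed is in capitals and each sequence runs 5′ to 3′.
miR-3535: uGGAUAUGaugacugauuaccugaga
miR-7033-5p: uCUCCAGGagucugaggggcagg
miR-3470b: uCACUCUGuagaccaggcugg
miR-5621-5p: aGGAGGUCcuggggccgcccuga
The 4 seeds differed from each other, and 0 other names of the table and 0 other mature names of RefSeq had any of them. Lengths were 26 bases for miR-3535, 23 for miR-7033-5p and miR-5621-5p and 21 for miR-3470b. The median over the 299 matched names was 22, and 5 of the 299 were as long as miR-3535. The GC content was 38.5% in miR-3535, 57.1% in miR-3470b, 65.2% in miR-7033-5p and 73.9% in miR-5621-5p, beside a median of 45.5% over the 299.

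The authors cite GGAG and CCCU as motifs reported towards the 3′ end of miRNAs sorted into some vesicles. They were searched for here as letters over the whole mature RNA as written. GGAG occurred once in miR-7033-5p, from base 7, and once in miR-5621-5p, from base 2, and in 7.69% of the 299 sequences. Both of these matches lie nearer the 5′ end, and not where the motif was reported. CCCU occurred in miR-5621-5p, from base 18, and in 8.03% of the 299. Neither occurred in miR-3535 or miR-3470b. A match shows only that these letters are present.

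miR-3535 overlaps a snoRNA gene, which is why that transcript is printed. Its mature bases lie at chr1:86352062-86352087 on the minus strand, in the intron of Ncl between exons 11 and 12. Ncl encodes nucleolin, a nucleolar protein of ribosome synthesis. The same place holds Gm24148, annotated by GENCODE as a snoRNA of 80 bases at chr1:86352008-86352087, and miR-3535 is its bases 1 to 26. The capitals mark the first UGAUGA, at bases 7 to 12, and the last CUGA, at bases 72 to 75, which are the core letters of boxes C and D.
Gm24148: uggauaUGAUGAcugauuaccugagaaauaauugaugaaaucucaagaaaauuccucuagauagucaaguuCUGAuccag
UGAUGA was present in 2.01% of the 299 mature sequences, and miR-3535 held it from base 7. Reads of the snoRNA end and reads of miR-3535 have the same letters and cannot be told apart in these values.

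The hairpins of miR-7033 and miR-5621 are printed because both lie within a few bases of a splice site. The mature bases are in capitals.
miR-7033: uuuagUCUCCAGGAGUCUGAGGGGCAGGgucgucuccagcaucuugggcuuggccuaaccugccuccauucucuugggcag
miR-5621: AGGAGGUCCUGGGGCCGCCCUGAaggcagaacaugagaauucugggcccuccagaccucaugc
The miR-7033 hairpin of 81 bases, at chr5:135383730-135383810 on the minus strand, lies in an intron of 109 bases of Pom121, which encodes a protein of the nuclear pore. It begins 28 bases after exon 8 and ends with 0 bases between it and exon 9, so that its last base is the last base of the intron. The miR-5621 hairpin of 63 bases, at chr11:115795824-115795886 on the plus strand, lies in an intron of 251 bases of Tmem94, which encodes a membrane protein. It begins 9 bases after exon 24 and ends 179 bases before exon 25. Both hairpins are on the strand of their host gene.

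The other hairpins lie farther from exons. That of miR-3470b, at chr16:44013852-44013977 on the plus strand, lies in an intron of Gramd1c, between exons 1 and 2, on the strand opposite to the gene. That of miR-3470a, at chr6:83090311-83090387 on the minus strand, is between genes, 2067 bases from Lbx2 and 11213 from Ccdc142. That of miR-598, at chr14:63727189-63727267 on the plus strand, is in an intron of 190922 bases of Xkr6, on the strand of the gene. Of the 6 hairpins, 5 thus lie in introns, each of a different gene and on a different chromosome.

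The bases of miR-3470b belong to the B1 family of short interspersed repeats, which is present in very many copies in the mouse genome and in transcripts. The annotation held transcripts of 55450 genes, and its miRNA genes were left out of the search. The whole mature sequence of miR-3470b occurred exactly in transcripts of 1016 genes, in 546 on the strand of the gene and in 497 on the opposite strand. This was the highest number among the 299 miRNAs, of which 205 had a match in 0 genes and 3 in at least 10. miR-3535 matched 1 gene, and miR-7033-5p and miR-5621-5p matched 0. Fragments of B1 transcripts and miR-3470b have the same letters, and their parts in the CPM values were not tested.

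miR-3470b was the most abundant of the 6 in the corpus, where it stood at 992, 1156 and 1032 CPM in replicates 1, 2 and 3. In the caput the values were 99.2, 195 and 482 CPM, and in the cauda they were 281, 303 and 353 CPM. The lowest corpus library lay above all 6 libraries of the other segments, and the highest of those 6 was caput replicate 3. Segment means were 1060 ± 85.4 CPM for the corpus, 312 ± 37.2 for the cauda and 259 ± 199 for the caput (SD, n = 3). Differences between segments are given from here on as differences of mean log2(CPM + 1) with their standard errors, and folds are on this scale, which understates changes of miRNAs near 1 CPM. The corpus mean of miR-3470b was higher by 2.32 ± 0.66 than the caput mean and by 1.76 ± 0.12 than the cauda mean.

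miR-3470a had the profile nearest to that of miR-3470b. Its corpus libraries were at 801, 739 and 742 CPM and so differed little among themselves, with a mean of 761 ± 34.8 (SD, n = 3). Caput libraries were at 84.9, 118 and 408 CPM and cauda libraries at 263, 336 and 357 CPM. No library of another segment reached the lowest corpus library, and caput replicate 3 was again the highest of them, above the 3 cauda libraries. The corpus mean was higher by 2.24 ± 0.69 than the caput mean and by 1.26 ± 0.14 than the cauda mean.

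The ratio of miR-3470a to miR-3470b in one library ran from 0.604 to 0.856 over the caput libraries and from 0.639 to 0.807 over the corpus libraries. In the cauda it was higher, from 0.938 to 1.11, and these values did not overlap those of the other segments. This ratio was looked at after the values had been seen and was not tested. The counting may have divided reads between the names where their sequences are alike, and for miR-3470a no sequence was compared here. Together they held 63.6 to 90.0% of the summed CPM of the 6 miRNAs in every library.

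miR-3535, the entry that overlaps the snoRNA, stood at 128, 286 and 633 CPM in the corpus. These are 793, 731 and 981 reads, so that the 4.95-fold range within the corpus was far wider than counting error. The caput libraries were at 22.4, 32.5 and 32.1 CPM and the cauda libraries at 60.0, 88.3 and 52.2 CPM. The segments were separate, with every caput library below every cauda library and every cauda library below every corpus library. Means were 29.0 ± 5.73, 349 ± 259 and 66.9 ± 19.0 CPM in the caput, corpus and cauda (SD, n = 3). The corpus mean was higher by 3.28 ± 0.68 than the caput mean and by 2.11 ± 0.70 than the cauda mean, 9.69-fold and 4.33-fold. Within the corpus the level was higher where the library held fewer reads (6190324, 2553385 and 1548581), and the part of depth or of library quality in this was not tested.

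miR-7033-5p, from the hairpin that ends at a splice site, had the largest differences of the 6. Its corpus libraries were at 122, 719 and 329 CPM. Caput libraries were at 7.78, 17.5 and 48.6 CPM and cauda libraries at 28.5, 29.3 and 128 CPM. The corpus and the cauda overlapped, since corpus replicate 1 lay below cauda replicate 3. The corpus mean was higher by 3.94 ± 1.03 than the caput mean, 15.4-fold, and by 2.66 ± 1.02 than the cauda mean, 6.33-fold. Its spread was wide in every segment, with a coefficient of variation of 77.7% among corpus libraries, 86.6% among caput libraries and 92.3% among cauda libraries.

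miR-598-3p, encoded in the long intron of Xkr6, was low but even. Corpus libraries were at 26.2, 25.8 and 21.3 CPM, caput libraries at 9.91, 7.49 and 11.1 and cauda libraries at 6.50, 6.87 and 9.16. The 3 corpus libraries lay above the other 6. The lowest corpus value rested on 33 reads, with an exact Poisson 95% interval of 14.7 to 29.9 CPM, and the highest value outside the corpus on 94 reads, with an interval of 8.99 to 13.6 CPM. These intervals cover counting error only. The corpus mean was higher by 1.29 ± 0.18 than the caput mean and by 1.59 ± 0.16 than the cauda mean. It was the only one of the 6 whose cauda mean, 7.51 ± 1.44 CPM, was below its caput mean, 9.51 ± 1.85 CPM (SD, n = 3).

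miR-5621-5p, from the Tmem94 intron, was high in the corpus in 2 of 3 libraries only. Corpus replicates 1 and 2 were at 29.2 and 51.7 CPM, from 181 and 132 reads. Corpus replicate 3 had 0 reads, which allows up to 1.94 CPM when 3 reads are taken as the floor and 2.38 CPM by the exact Poisson 95% interval. Caput libraries were at 2.12, 0.604 and 7.45 CPM and cauda libraries at 13.5, 8.70 and 2.20 CPM. With all libraries the corpus mean was higher by 1.74 ± 1.92 than the caput mean and by 0.61 ± 1.90 than the cauda mean, less than 1 standard error in both cases. Without corpus replicate 3 the differences were 3.52 ± 0.80 and 2.38 ± 0.76, and the 2 corpus libraries left lay above the 6 others. Without corpus replicate 1, without corpus replicate 2 or without cauda replicate 3 the difference from the cauda turned slightly negative. Its description as peaking in the corpus therefore rests on which libraries are used. Whether the 0 reads of corpus replicate 3 reflect the vesicles or that library was not tested.

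**Figure D1:**
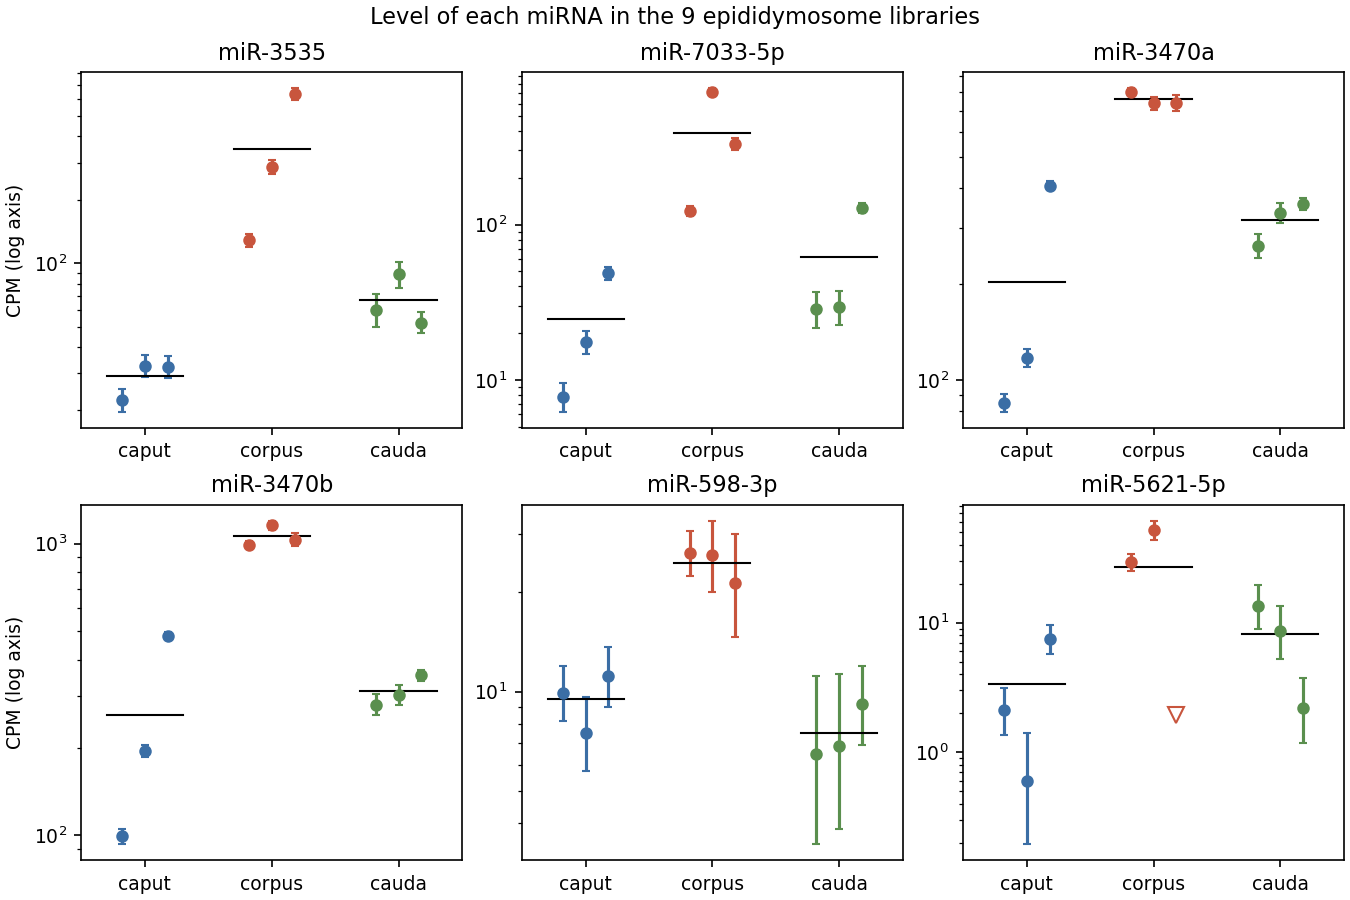
Level of each of the 6 miRNAs in the 9 libraries, in CPM on a log axis that differs between panels. Points are libraries, vertical bars are exact Poisson 95% intervals that cover counting error only, black lines are segment means, and the open triangle is the floor of 3 reads, 1.94 CPM, for miR-5621-5p in corpus replicate 3, which had 0 reads. The corpus points lie above the rest for miR-3535, miR-3470a, miR-3470b and miR-598-3p.

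The label of corpus-peaked held for the means of all 6 miRNAs. The 3 corpus libraries lay above all 6 others for 4 of the 6, namely miR-3535, miR-3470a, miR-3470b and miR-598-3p, beside 5.31% of all 358 miRNAs. They lay above the 3 caput libraries for 5 of the 6, beside 27.7% of all miRNAs, and above the 3 cauda libraries for 4 of the 6, beside 15.4%. These shares come from the contrasts that chose the miRNAs, and nothing is read from the comparison. The median over the 6 was 2.28 for corpus minus caput, beside 0.45 over all 358 miRNAs. For corpus minus cauda it was 1.68, beside -0.15.

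The scale of the libraries moved these differences. Scaling by TMM, a trimmed mean of ratios between libraries, brought the median over all miRNAs to -0.08 for corpus minus caput and -0.05 for corpus minus cauda. The medians over the 6 miRNAs were then 1.71 and 1.76. The corpus minus caput difference of miR-598-3p was then 0.75, which is under a fold of 2. With this scaling 5 of the 6 lay above all other libraries. The share over all miRNAs was not counted with this scaling, and nothing is read from this number.

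**Figure D2:**
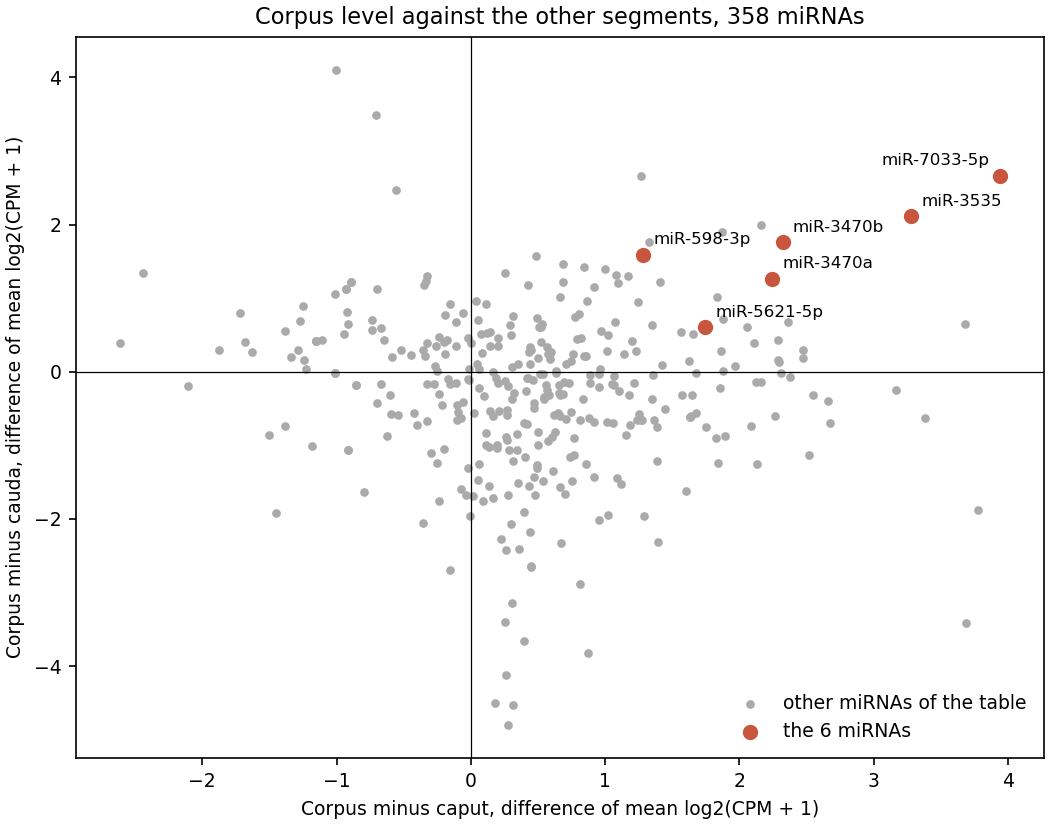
Difference of mean log2(CPM + 1) between corpus and caput on the x axis and between corpus and cauda on the y axis for all 358 miRNAs, with the 6 miRNAs in red. All 6 have positive differences on both axes, from 0.61 to 2.66 against the cauda.

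When all 358 miRNAs were ordered by the ratio of the corpus mean to the higher of the caput and cauda means in CPM, the 6 did not stand alone at the top. miR-7033-5p was the first with a ratio of 6.30 and miR-3535 the second with 5.23. The next were miR-92a-3p with 4.59 and miR-677-3p with 3.84, followed by miR-3470b with 3.39 and miR-5621-5p with 3.32. miR-135b-5p (2.68) ranked above miR-598-3p (2.57) and miR-3470a (2.39). miR-92a-3p, a member of the miR-17 to miR-92 cluster, was at 895, 1086 and 302 CPM in the corpus and at most at 182 CPM elsewhere. miR-677-3p overlapped with the cauda, where its highest library was at 9.33 CPM and its lowest corpus library at 8.56 CPM.

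The summed level of the 6 miRNAs was a small share of the reads on miRNAs. Corpus libraries held 0.210, 0.298 and 0.276%, caput libraries 0.0226, 0.0371 and 0.0989% and cauda libraries 0.0653, 0.0771 and 0.0902%. The sum was thus higher in every corpus library than in any other. Caput replicate 3 was above the cauda libraries and well above the other caput libraries.

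**Figure D3:**
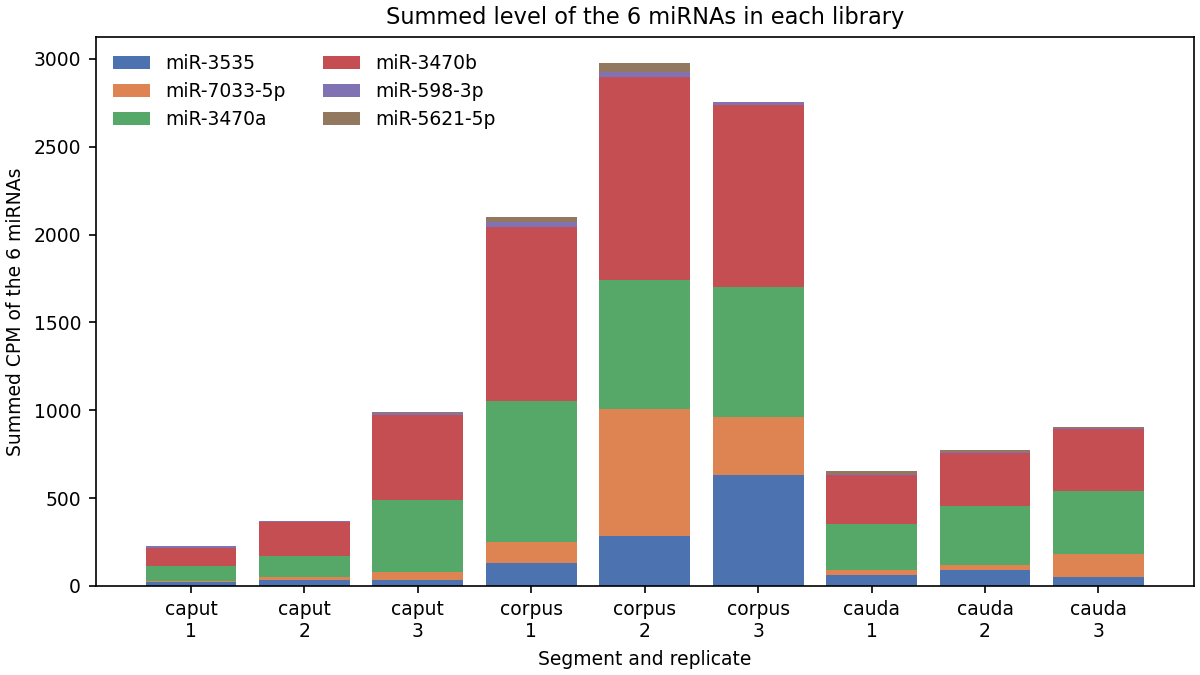
Summed CPM of the 6 miRNAs in each library, with each bar divided by miRNA and starting at 0. The 3 corpus bars reach 2098, 2977 and 2757 CPM, and miR-3470a and miR-3470b fill most of every bar.

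The caput and the cauda are the pair of segments whose contrast does not contain the corpus, and this was the only contrast tested. It was tested with limma on log2(CPM + 1) in a fit of all 9 libraries, and a miRNA was called at a Benjamini-Hochberg adjusted p under 0.05 over all 358 miRNAs and a fold of at least 2. By this rule 48.0% of all miRNAs were called and 0 of the 6. At an unadjusted p under 0.05 it was 1 of the 6, beside 205 of all 358. With limma-voom on the reads 0 of the 6 were also called, beside 173 of all 358. The choice of miRNAs that were highest in the corpus also bounds their caput and cauda levels from above, so that the test is not wholly free of the choice.

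The standard errors of this contrast are those of limma, with a spread pooled over all segments and moderated towards a trend over all miRNAs. Those of the corpus differences above came only from the libraries compared, and the errors of both kinds are not comparable. Cauda minus caput differences were 1.16 ± 0.52 for miR-3535 (adjusted p = 0.0684, limma), 1.28 ± 0.72 for miR-7033-5p (adjusted p = 0.149, limma) and 0.98 ± 0.49 for miR-3470a (adjusted p = 0.104, limma). They were 0.56 ± 0.47 for miR-3470b (adjusted p = 0.345, limma), 1.14 ± 1.08 for miR-5621-5p (adjusted p = 0.398, limma) and -0.30 ± 0.42 for miR-598-3p (adjusted p = 0.571, limma). The cauda mean was thus the higher one for 5 of the 6. The 95% intervals of the differences were wide, from 0.07 to 2.25 for miR-3535, from -0.06 to 2.01 for miR-3470a and from -0.24 to 2.80 for miR-7033-5p, and a fold of 2 in the cauda's favour lies inside each of these. The interval for miR-598-3p was from -1.19 to 0.58 and held no such rise.

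Caput replicate 3 decided several of these results, since miR-3470a, miR-3470b and miR-7033-5p were higher there than in the other caput libraries. Its TMM factor was 1.16, beside 0.753 and 0.478 for caput replicates 1 and 2. Factors of the corpus and cauda libraries ran from 1.08 to 1.29. Leaving out single libraries was not tried with TMM scaling. With caput replicate 3 left out, limma called 3 of the 6 higher in the cauda, beside 202 of all 358 called in either direction. The 3 were miR-3470a by 1.65 (adjusted p = 0.00181), miR-3470b by 1.15 (adjusted p = 0.0185) and miR-7033-5p by 1.93 (adjusted p = 0.0455). Without corpus replicate 3, which enters through the shared spread, miR-3535 alone of the 6 was called (adjusted p = 0.0492, limma), beside 169 of all 358. The median over all 358 miRNAs was 0.76 higher in the cauda, beside 1.06 for the 6, and with TMM scaling these medians were 0.09 and 0.40. With TMM scaling the difference of miR-3470b changed sign to -0.11 and that of miR-598-3p was -0.91 (adjusted p = 0.0274, limma), which is under a fold of 2.

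**Figure D4:**
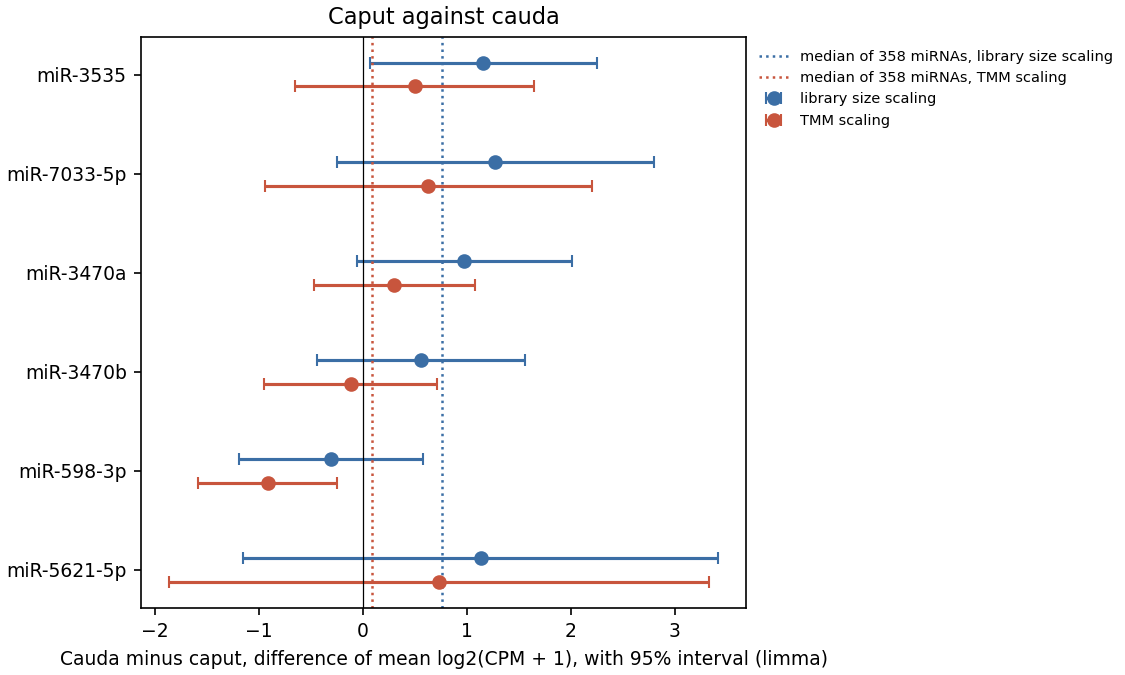
Cauda minus caput difference of mean log2(CPM + 1) for each of the 6 miRNAs, with its 95% interval from limma, under library size scaling (blue) and TMM scaling (red). Dotted lines are the medians of all 358 miRNAs, 0.76 and 0.09, and the intervals include 0 for all but miR-3535 in blue and miR-598-3p in red.

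The 6 miRNAs varied together across the 9 libraries to unequal degrees. On log2(CPM + 1) the Pearson correlation between miR-3470a and miR-3470b was 0.970, and among miR-3535, miR-7033-5p, miR-3470a, miR-3470b and miR-598-3p it ran from 0.712 to 0.970. With miR-5621-5p the correlations were between 0.132 and 0.447. The 9 points fall into 3 segments and share library depth, so that these are descriptions and largely repeat the common corpus level.

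By the same measure the profile nearest to that of miR-7033-5p was miR-690 (0.976). For miR-598-3p it was miR-1839-3p (0.974), for miR-3535 miR-677-5p (0.894), for miR-3470a and miR-3470b each other, and for miR-5621-5p miR-3473f (0.859). miR-1839-3p stood at 76.7, 83.4 and 51.7 CPM in the corpus, and no library of another segment exceeded 32.7 CPM. Corpus libraries of miR-677-5p, at 87.1, 146.9 and 294.5 CPM, stood in the same order as those of miR-3535. miR-3473f was low in the same corpus library as miR-5621-5p, at 37.5, 61.1 and 2.58 CPM, the last from 4 reads. To the mean profile of the 6 the nearest were miR-690 (0.926), miR-186-5p and miR-92a-3p (0.894 each), miR-3473a (0.884) and miR-324-3p (0.882).

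Lists that share a feature with the 6 were described by their counts. Of the 6 miRNAs, 5 are numbered 3000 or above, and the table held 17 other such names. The corpus libraries lay above the caput libraries for 6 of these 17, above the cauda libraries for 1 and above all others for 0, beside 27.7, 15.4 and 5.31% of all miRNAs. Their medians were 0.66 for corpus minus caput and -0.14 for corpus minus cauda, close to the values of 0.45 and -0.15 over all miRNAs. In the caput and cauda contrast 10 of the 17 were called by limma, 9 of them higher in the cauda, beside 172 of all 358 with 135 higher in the cauda.

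Apart from miR-3470b, the names whose mature sequence occurred in transcripts of at least 10 genes were miR-3473b (726 genes) and miR-3473a (281 genes). Corpus libraries of miR-3473b were at 188, 358 and 112 CPM, with caput libraries between 14.9 and 76.7 and cauda libraries between 133 and 195. Those of miR-3473a were at 111, 159 and 73.0 CPM, with caput libraries between 13.7 and 41.3 and cauda libraries between 61.4 and 74.5. Both lay above the caput in every corpus library and both overlapped with the cauda, and both were called by limma in the caput and cauda contrast, with the cauda higher.

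Markers of the cell types that a vesicle preparation could hold are given by their summed CPM. The 5 epithelial miRNAs (miR-200 family, miR-141 and miR-429) were all present and were highest in the corpus, from 71973 to 84209, beside 20990 to 31796 in the caput and 44552 to 61007 in the cauda. This sum has the order of segments of 5 of the 6 miRNAs, miR-598-3p excepted, and its part in their profile was not tested. The order belongs to the sum and not to every marker. Mean log2(CPM + 1) was highest for miR-141-3p, at 14.1 (caput) and 15.3 (cauda). For miR-200b-3p these segments had the reverse order, at 11.7 (caput) and 11.2 (cauda). Caput and cauda means were 11.0 and 11.8 for miR-200a-3p, 10.2 and 10.5 for miR-200c-3p and 11.5 and 11.9 for miR-429-3p. Smooth muscle markers (3 of 5 in the table) summed to 50111 to 88978 (caput), 88413 to 121407 (corpus) and 291651 to 354735 (cauda). In the same order of segments, red blood cell markers (5 of 7) ran from 223 to 848, from 390 to 1106 and from 3030 to 4365, and striated muscle markers (5 of 6) from 55.5 to 197, from 121 to 167 and from 1412 to 4166. Male germ cell markers (12 of 12) ran from 316 to 1050, from 984 to 1028 and from 2164 to 2752. These lists were all highest in the cauda and not in the corpus. The germ cell list includes miR-34c-5p, at a mean log2(CPM + 1) of 8.81 (caput) and 10.5 (cauda). The paper reports miR-34c in the epididymal epithelium as well, so that the sum of this list is not specific to germ cells. Leukocyte markers (5 of 7) overlapped between all segments, from 231 to 530, from 515 to 1149 and from 392 to 1601. No marker present was at 0 in all libraries. In the red blood cell list the highest means of log2(CPM + 1) were those of miR-486a-5p, at 7.66 (caput) and 10.75 (cauda), and miR-486b-5p, at 7.65 and 10.75. Whether the same reads were counted under both names was not tested. For miR-451a the means were 5.04 (caput) and 7.20 (cauda).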

How the data were processed

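The authors screened the reads for contaminants with cutadapt and bowtie, counted them on known mature miRNAs with miRDeep2 and normalised for library size. The submitters' processing notes list CASAVA 1.8.2, Bowtie 1.1.1 and limma. Genome build and miRBase release are not given in the sources used here. The deposited values are CPM of 358 miRNAs in 9 libraries. The study's methods name a detection threshold per library, and low values remain in the table.

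Values came in steps of 1 read, with 100% within a tolerance of 0.1 reads of a whole number, and the steps gave the read totals. Floors of 3 reads lay between 0.265 and 1.94 CPM. Intervals cover counting error only, since reads carry no molecular identifiers. No column of the table was left out.

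The members and lists were chosen with earlier results of these data known. Because they were chosen for their corpus level, only the caput and cauda were compared by a test: limma 3.58 in R 4.3 (lmFit, eBayes with trend) on log2(CPM + 1), segment as the only factor, all 9 libraries and Benjamini-Hochberg adjustment. The script was tested on simulated data. P-values rest on the spread between 3 pools per segment, pooled over all segments and moderated by limma towards a trend over all miRNAs. They do not measure the spread of the caput and cauda pools alone.

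Named, besides the 6, are the miRNAs nearest to their mean profile and to each single profile and the 3 with the largest ratio of the corpus mean to the higher other mean. miR-3473b was named after its values had been seen. A planned list of sequences repeated in the genome was replaced by exact matches to GENCODE transcripts, chosen afterwards. Mature sequences and positions are from RefSeq (GRCm38.p6), and gene models from GENCODE for GRCm38. Mature sequences of miR-3470a and miR-598-3p were not analysed here. Alternatives were TMM and median-of-ratios scaling, pseudocounts of 0.5 and 10 CPM, a filter at a mean of 10 CPM, the replicate number as a block, the 6 caput and cauda libraries alone, limma-voom and each library left out in turn. Tables were handled with Python 3.11, numpy 2.4, pandas 2.3 and scipy 1.17, and plots drawn with matplotlib 3.10.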

Additional observations from a re-analysis of the deposited data

How the results depend on the processing

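In the caput and cauda contrast 0 of the 6 miRNAs were called, and leaving out single libraries gave between 0 and 3. With the replicate number as a block 2 of the 6 were called, beside 179 of all 358 miRNAs. The 2 were miR-3535 (adjusted p = 0.0482, limma) and miR-7033-5p (adjusted p = 0.0474, limma). The numbers were not taken to pair the libraries in the main fit. Deviations from the segment means were correlated above 0.1 in 6 of the 9 pairs of same-numbered libraries, over a range of -0.21 to 0.41. Between libraries of different numbers the correlations ran from -0.45 to 0.18. These values do not settle whether the numbers pair the libraries, and the number of miRNAs called depends on that choice. The other alternatives run called 0, of 4 miRNAs under the filter at a mean of 10 CPM, which removed miR-598-3p and miR-5621-5p. Over all 358 miRNAs, 172 were called, 130 with a pseudocount of 10 CPM, 160 with TMM, 173 with limma-voom and between 134 and 202 when 1 library was left out. The caput and cauda difference of miR-3470b was reversed with TMM (-0.11) and median-of-ratios scaling (-0.16). The corpus differences of single miRNAs were compared with the main result 120 times, once for each alternative that could change each of them. In 111 of these comparisons the difference moved by less than the spread between replicates, in 6 by more and in 3 it changed sign. Leaving out 1 of 3 libraries cannot move a difference by more than this spread, so that those comparisons could differ only by a change of sign. The 6 larger moves were all under another scaling or pseudocount, and the number of 111 is no measure of stability. The sign changes were all of miR-5621-5p against the cauda, which was -0.08 without corpus replicate 1, -0.48 without corpus replicate 2 and -0.02 without cauda replicate 3, and 2.38 without corpus replicate 3. For miR-598-3p against the caput the difference was 0.75 with TMM, 0.80 with median-of-ratios scaling and 0.82 with a pseudocount of 10 CPM. The causes were not tested. The median corpus difference over the 6 ran from 1.79 to 2.92 against the caput and from 1.60 to 1.79 against the cauda when single libraries were left out. In these settings 4 or 5 of the 6 lay above all other libraries, and the share over all 358 miRNAs was not counted there. A planned quasi-likelihood test on counts was not run, and limma-voom on the reads recovered from the CPM steps was run instead. Depth limits the low values, such as the 33 reads of miR-598-3p in corpus replicate 3.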
